A study of Mus with 6 samples.

Results

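Mitochondria burn fatty acids and pyruvate through a shared sequence of enzymes, and 37 genes of that sequence and its control are described here: 17 of fatty acid beta oxidation, 4 of the pyruvate dehydrogenase complex, 13 of the citrate cycle and 3 regulators. They were chosen by name, with earlier results of these data known, and all 37 were found among the 20893 genes measured. The libraries are 6 RNA-seq samples of cardiac microvascular endothelial cells of the mouse, bead-sorted as CD31-positive and CD45-negative after surgical ligation of the left coronary artery, an operation that infarcts the heart. Both groups had the surgery: 3 samples are wild-type (WT) and 3 are titled Ccl28 knockout (KO), and each group holds replicates 2, 3 and 4. The genotype field of KO replicates 3 and 4 reads Ccl29-KO and Ccl30-KO, against their titles, which were followed. Strain, sex, age and time after surgery are not given in the sources used here, nor is it said that replicates are separate animals, so p-values speak only of how much these samples vary, and that variation may be technical.

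Long-chain fatty acids are joined to coenzyme A, carried into mitochondria as carnitine esters and shortened stepwise to acetyl-CoA, with electrons of the acyl-CoA dehydrogenase step passed on by the electron transfer flavoprotein. The pyruvate dehydrogenase complex makes acetyl-CoA from the end product of glycolysis, and the citrate cycle oxidizes acetyl-CoA from either source. Heart muscle relies heavily on fatty acids, whereas endothelial cells draw most of their ATP from glycolysis and are known to use fatty acid carbon in the citrate cycle for making nucleotides.

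The values are FPKM, reads scaled to gene length and library size, and levels of different genes are compared on this scale, with ratios in reads given beside it for some partner genes. Depth was similar, with 39104282 to 40500067 reads in WT and 36004457 to 37780513 in KO. Ccl28 had 16, 11 and 24 reads in WT and 0 in each KO library, which allows up to 3 reads each. Pecam1, which encodes CD31, stood at 561 to 744 FPKM, and Ptprc, which encodes CD45, at 0.871 to 1.71. A gene was tested if at least 3 libraries reached an FPKM of 1, and 34 of the 37 were. Differences are given as log2 fold changes (KO over WT) after 1 was added to each FPKM, a scale that understates changes of low genes, and "called" means an adjusted p under 0.05 in limma over all 10806 tested genes. Of those, 44.2% were called, 18.3% higher and 25.8% lower in KO. Shorter gene models tended to be higher and longer ones lower: a library's slope on log2 length ran from 0.101 to 0.135 in WT and from -0.155 to -0.091 in KO, so genotype and this slope cannot be told apart.

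Of the 34 tested genes, 10 rose in KO and none fell in limma, where the backgrounds are 18.3% and 25.8%. These were the acyl-CoA dehydrogenase gene Acads, the further beta oxidation genes Hadh, Acaa2 and Etfb, and the citrate cycle genes Idh2, Idh3b, Idh3g, Suclg1, Fh1 and Mdh2. All the changes were small, with fitted log2 fold changes of at most 0.48. Among the 34, 2 were lower at an unadjusted p under 0.05, Cpt1a and Ogdh, and limma-voom on recovered reads called 9 higher and none of the 34 lower. Over all 10806 tested genes limma-voom called 1872 higher and 2991 lower. Without any test, the FPKM ranges of the groups did not overlap for 13 of the 34 genes with KO higher and 3 with KO lower, against 22.8% and 31.9% of all tested genes. Of the 10, 9 have gene models of up to 1870 nt, a range that holds 12 of the 34, and genes of that length were mostly higher in KO over the whole table. With the length trend removed from each library 1 of the 10, Idh2, stayed called.

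**Figure D1:**
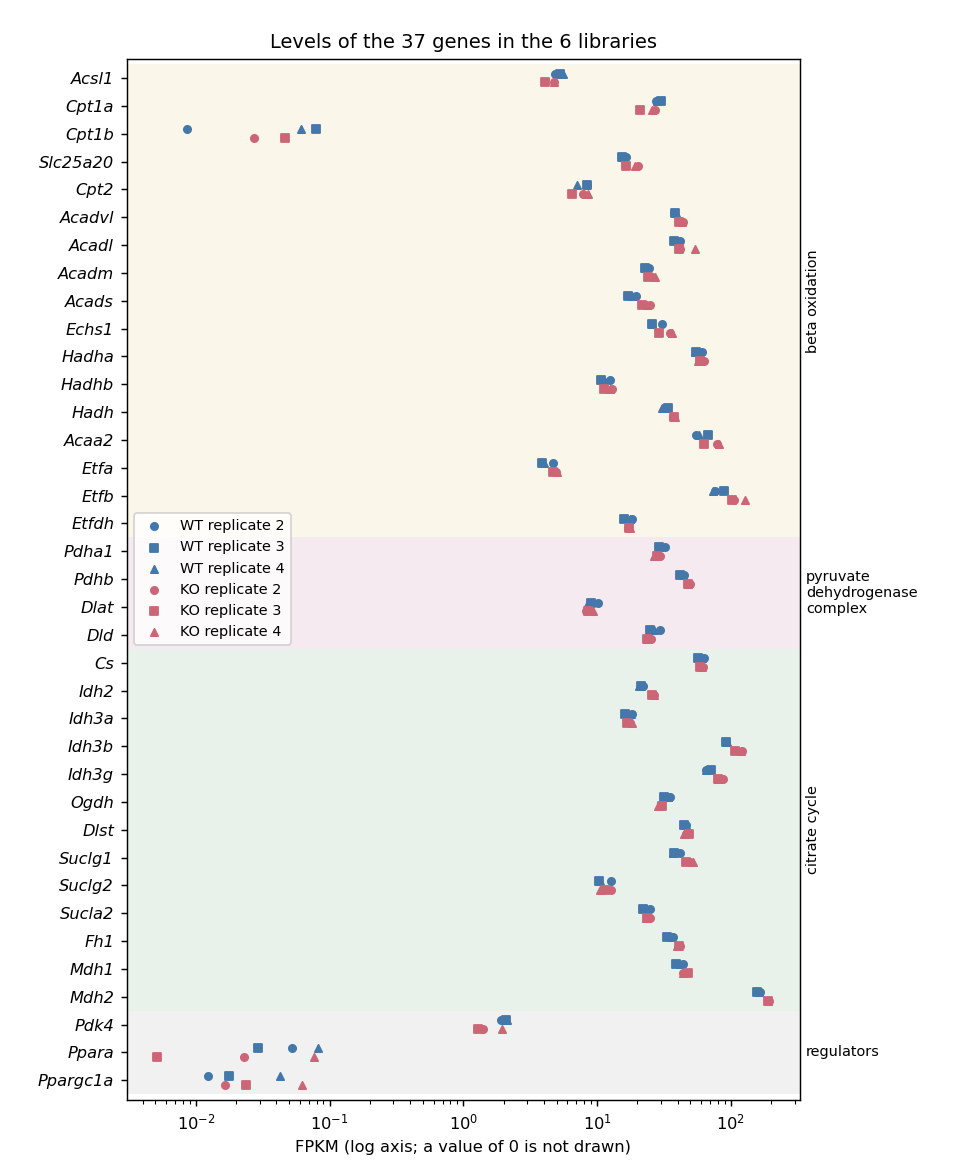
FPKM (log axis) of the 37 genes in each of 3 WT (blue) and 3 KO (red) libraries, with symbol shape giving the replicate number. The enzyme genes other than Cpt1b lie between 3.87 (Etfa) and 193 FPKM (Mdh2) with close WT and KO points, Pdk4 lies lower, and Cpt1b, Ppara and Ppargc1a lie under 0.1.

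Entry of fatty acids was examined first. Acsl1 joins long-chain fatty acids to coenzyme A, Cpt1a and Cpt1b make the carnitine ester at the outer membrane, Slc25a20 carries it inward and Cpt2 releases it. None of the 4 tested entry genes was called in limma or by limma-voom; at an unadjusted p under 0.05, 1 was higher and 1 lower. Cpt1a (chromosome 19, 3322326 to 3385735, GRCm38), the liver-type and rate-controlling enzyme, had 27.6, 30.3 and 28.2 FPKM in WT and 27, 20.9 and 25.9 in KO. All KO values were below all WT values, with KO replicate 3 lowest, and the log2 fold change was -0.22 (SE 0.10, adjusted p = 0.094), and -0.11 (adjusted p = 0.313) without that library. Slc25a20 had 16.6, 15.4 and 15.7 FPKM in WT and 20.1, 16.6 and 19.4 in KO, ranges that just miss each other, with a log2 fold change of 0.22 (SE 0.09, adjusted p = 0.0612).

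The muscle-type gene Cpt1b was close to undetected. It had 1, 9 and 7 reads in WT and 3, 5 and 0 in KO, or 0.0498 ± 0.0369 FPKM against 0.0246 ± 0.0234 (SD, n = 3). Both groups lie near the floor of 3 reads, the groups overlap and no fold is given (exact two-sided permutation p = 0.4, where 0.1 is the smallest p that 3 against 3 allows). Acsl1, at 5.23 ± 0.329 FPKM in WT and 4.53 ± 0.4 in KO, and Cpt2, at 7.99 ± 0.823 and 7.66 ± 1.05, were present at lower levels than Cpt1a and were not called. For Acsl1 all KO values lay below all WT values (log2 fold change -0.17, adjusted p = 0.161 in limma), whereas the groups overlap for Cpt2.

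The acyl-CoA dehydrogenases take the first step of each cycle, and each is specialized for a range of chain lengths. Of the 4, 1 rose, beside 18.3% of all tested genes. It was Acads (chromosome 5, 115110299 to 115119346), the short-chain enzyme, with 19.6, 17.2 and 18.4 FPKM in WT and 24.8, 21.8 and 23.6 in KO. The groups do not overlap, and the log2 fold change was 0.33 (SE 0.08, adjusted p = 0.00911). Acadl, the long-chain enzyme, had 41.4, 37.6 and 40.1 FPKM in WT and 41.9, 41 and 54 in KO. KO replicate 4 stood above the other libraries, and KO replicate 3 lay below WT replicate 2 (log2 fold change 0.19, adjusted p = 0.172, and 0.06 with an adjusted p of 0.565 without KO replicate 4). Acadvl, for very long chains, had 37.4, 38.4 and 38.7 FPKM against 43.7, 41.3 and 43.4, without overlap but not called (log2 fold change 0.16, adjusted p = 0.0662). Acadm, for medium chains, went from 23.3 ± 0.81 to 25.8 ± 1.52 FPKM (n = 3 each) and was not called.

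The next steps are carried out by Echs1, a hydratase of short chains, Hadh, the dehydrogenase of the hydroxy acid, Acaa2, a thiolase, and by Hadha and Hadhb, whose products form the trifunctional protein that does all 3 for long chains. Of these 5 genes, 2 rose, Hadh and Acaa2, beside 18.3% of all tested genes. Both have gene models of up to 1791 nt, a range where 59.8% of tested genes were called higher. Hadh had 33.1, 34.1 and 30.4 FPKM in WT and 36.7, 37.5 and 38.6 in KO, every KO value being higher (log2 fold change 0.20, SE 0.07, adjusted p = 0.0403). Acaa2 had 55.3, 67.2 and 57.7 FPKM against 79.1, 62.8 and 82.2, and the groups overlap because KO replicate 3 lies below WT replicate 3 (log2 fold change 0.31, SE 0.11, adjusted p = 0.048). Both calls were weak: leaving out each library in turn gave adjusted p-values from 0.0377 to 0.177 for Hadh, which was lost in 5 of 6 cases (kept only without WT replicate 3), and from 0.00827 to 0.163 for Acaa2, which was lost without WT replicate 2 or 4 and without KO replicate 2 or 4.

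Hadha had 60.8, 55 and 54.5 FPKM in WT and 62.6, 59 and 56.8 in KO, and the groups overlap. Its log2 fold change was 0.07 (SE 0.07, adjusted p = 0.491). Hadhb stands next to it on chromosome 5 (30155253 to 30184593, beside Hadha at 30119423 to 30154980) and had 12.6, 10.7 and 11.3 FPKM against 12.9, 11.3 and 12.5, also overlapping (log2 fold change 0.08, adjusted p = 0.477). Echs1 went from 27.4 ± 2.88 to 33.4 ± 3.83 FPKM, with a log2 fold change of 0.27 and an adjusted p of 0.0533.

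Electrons from the acyl-CoA dehydrogenases pass to the flavoprotein made of the Etfa and Etfb products, and from there to the ubiquinone pool through the enzyme encoded by Etfdh. Etfb (chromosome 7, 43444072 to 43457800) showed the largest log2 fold change of the 34 tested genes. It had 76.4, 89.1 and 73.3 FPKM in WT and 106, 102 and 127 in KO, with no overlap and KO replicate 4 highest (log2 fold change 0.48, SE 0.10, adjusted p = 0.00485). Its partner Etfa had 4.72, 3.87 and 4.04 FPKM against 4.98, 4.72 and 5.05, with WT replicate 2 just under KO replicate 3, and was not called (log2 fold change 0.19, SE 0.09, adjusted p = 0.134). Etfdh had 18.4, 16 and 17.8 FPKM in WT and 17, 17.3 and 17.7 in KO, all KO values lying within the WT range.

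None of the 4 genes of the pyruvate dehydrogenase complex was called in limma, 1 being higher at an unadjusted p under 0.05, and limma-voom called 0 as well. Pdhb, the beta subunit of the decarboxylase, had 44.9, 42 and 44.1 FPKM in WT and 50, 48.2 and 48.1 in KO, higher in all 3 KO libraries (log2 fold change 0.16, SE 0.06, adjusted p = 0.0754). Pdha1, the alpha subunit of the same enzyme, had 32.5, 29.3 and 29.2 FPKM against 29.8, 27.9 and 26.5, overlapping and lower on average (log2 fold change -0.11, SE 0.08, adjusted p = 0.27, and -0.06 without WT replicate 2 or -0.07 without KO replicate 4). The gene models of these partners differ in length, at 1622 nt for Pdhb and 2855 nt for Pdha1. Dlat, the acetyl transferase, was at 9.2 ± 0.807 FPKM in WT and 8.71 ± 0.504 in KO. Dld, the flavoprotein dehydrogenase that this complex shares with 2-oxoglutarate dehydrogenase, had 29.7, 24.7 and 26.8 FPKM against 25.5, 23.6 and 23.7, with a log2 fold change of -0.15 (SE 0.08, adjusted p = 0.168), and -0.08 (adjusted p = 0.431) without WT replicate 2.

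In the citrate cycle 6 of 13 genes rose, beside 18.3% of all tested genes. Of these, Idh3b, Idh3g, Suclg1, Fh1 and Mdh2 have gene models of up to 1791 nt, a range where 59.8% of tested genes were called higher. Cs, citrate synthase, opens the cycle and was at 60.3 ± 3.26 FPKM in WT and 60.5 ± 1.28 in KO (log2 fold change 0.0071, SE 0.07, adjusted p = 0.941). Isocitrate is oxidized by the NAD-dependent enzyme, built from the products of Idh3a, Idh3b and Idh3g, and by the NADP-dependent mitochondrial enzyme Idh2. Idh3b (chromosome 2, 130279309 to 130284451) had 92, 91.6 and 93.4 FPKM in WT and 122, 108 and 119.7 in KO. The WT values are tight and all KO values lie above them (log2 fold change 0.33, SE 0.07, adjusted p = 0.00487). Idh3g rose from 67.1 ± 3.12 to 82.6 ± 4.04 FPKM (adjusted p = 0.00792), a call lost under quantile normalization (adjusted p = 0.0722). The catalytic subunit gene Idh3a was at 17.4 ± 1.11 and 17.6 ± 0.736 FPKM (log2 fold change 0.01, SE 0.08, adjusted p = 0.894).

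Idh2 (gene ID 269951, chromosome 7, 80094845 to 80118608) had 22.1, 21.3 and 20.6 FPKM in WT and 26.8, 26 and 26.9 in KO. The gap between the groups is wider than the spread within either (log2 fold change 0.30, SE 0.07, adjusted p = 0.00591). Suclg1, the alpha subunit of both succinyl-CoA ligases, had 41.7, 37.7 and 37 FPKM against 49.4, 46 and 51.8, without overlap (log2 fold change 0.33, SE 0.08, adjusted p = 0.0069). Its alternative partners, Sucla2 of the ATP-forming ligase (23.6 ± 1.36 and 24 ± 0.932 FPKM) and Suclg2 of the GTP-forming ligase (11.3 ± 1.27 and 11.6 ± 1.08), were not called. Sucla2 exceeded Suclg2 by 1.96 to 2.23 times in FPKM and by 1.19 to 1.35 times in reads, the gene models having 2409 and 3962 nt.

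Mdh2, the mitochondrial malate dehydrogenase, had the highest FPKM of the 37 genes. It had 165, 157 and 163 in WT and 193, 189 and 189 in KO, with a log2 fold change of 0.24 (SE 0.06, adjusted p = 0.0139), and the call was lost without WT replicate 4 or KO replicate 2 (highest adjusted p = 0.0534). Fh1, fumarate hydratase, rose from 35.5 ± 2 to 40.8 ± 1.06 FPKM (adjusted p = 0.0432) and was kept in 1 of 6 such cases, without WT replicate 2, with adjusted p-values from 0.0433 to 0.125. Mdh1, the cytosolic malate dehydrogenase, was not called (41.7 ± 2.58 and 45.4 ± 2.13 FPKM). Neither was Dlst, a subunit of 2-oxoglutarate dehydrogenase (45.9 ± 0.865 and 46.5 ± 1.82 FPKM). Ogdh, the first subunit of that complex, had 34.9, 31.7 and 33.7 FPKM in WT and 30.3, 30.6 and 28.4 in KO. All its KO values were lower, and it was not called (log2 fold change -0.16, SE 0.07, adjusted p = 0.091).

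The regulators were scarce. Pdk4, the kinase that switches pyruvate dehydrogenase off when fatty acids are burned, had 1.9, 2.07 and 2.12 FPKM in WT and 1.4, 1.3 and 1.95 in KO, where replicate 4 reached the WT range. Its log2 fold change was -0.26 (SE 0.12, adjusted p = 0.102), and -0.37 with an adjusted p of 0.0306 without KO replicate 4. Ppara, the nuclear receptor that switches on beta oxidation genes, had 22, 12 and 34 reads in WT and 9, 2 and 29 in KO (exact permutation p = 0.4). Ppargc1a, the coactivator of mitochondrial gene programs, had 8, 11 and 27 reads against 10, 14 and 36 (exact permutation p = 0.6). Replicate 4 held the most reads of both genes in each group, and neither gene reached 0.1 FPKM in any library.

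Summed over genes, the groups behaved unequally. Beta oxidation genes together held 472.3, 477.3 and 451.5 FPKM in WT and 550.4, 500.1 and 583.2 in KO, a 1.17-fold higher mean. Citrate cycle genes held 667.6, 632.5 and 650.4 FPKM against 758.8, 727.7 and 738, 1.14-fold higher, and in both groups all KO sums lay above all WT sums. Pyruvate dehydrogenase genes held 117.2, 105 and 108.7 FPKM against 113.6, 108.2 and 107.6, all KO sums lying within the WT range. That depends on the shared gene Dld. Without it the sums were 87.52, 80.32 and 81.86 FPKM in WT and 88.12, 84.61 and 83.91 in KO. These overlap, with a 1.03-fold higher KO mean and KO replicate 2 above all WT sums. These sums are descriptions without a test, and a few abundant short genes weigh most in them. The median log2 fold change was 0.17 over 16 tested beta oxidation genes, -0.09 over 4 pyruvate dehydrogenase genes and 0.12 over 13 citrate cycle genes, beside -0.03 over all tested genes. The pyruvate dehydrogenase median was -0.07 without Dld. With Dld it was -0.03 without WT replicate 2, -0.04 under median-ratio scaling and -0.05 under quantile normalization.

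**Figure D2:**
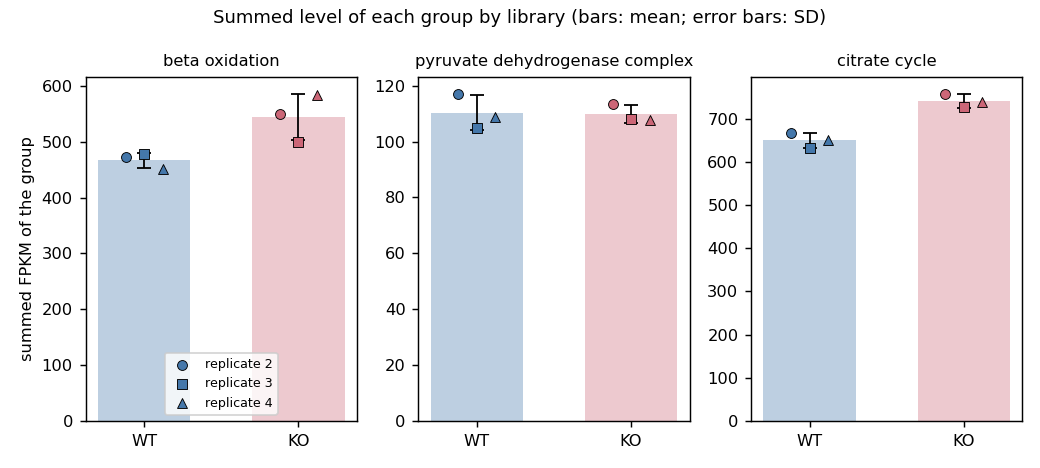
Summed FPKM of the 17 beta oxidation, 4 pyruvate dehydrogenase and 13 citrate cycle genes in each library (symbols), with the mean (bar) and SD (error bar) of 3 WT and 3 KO libraries. KO sums lie above WT sums for beta oxidation and the citrate cycle, and overlap for pyruvate dehydrogenase.

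Each gene was then set beside genes of similar length, because the 3 groups differ in it: the median gene model was 2125 nt for beta oxidation, 2566 nt for pyruvate dehydrogenase and 2404 nt for the citrate cycle, against 3429 nt over all tested genes. The tested genes were divided by length into 5 bins of nearly equal size. In the shortest bin, 105 to 1791 nt, 59.8% of genes were called higher and 1.57% lower. This bin holds 11 of the 34 genes, of which 8 were called higher. In the second, up to 2867 nt, 20.3% were called higher and 4.4% lower, and 1 of 13 members was called, Acads, upward. In the third length bin, 2867 to 4128 nt, where 7.59% were called higher and 16.1% lower, the 4 members Pdk4, Dlat, Cs and Suclg2 were not called. In the fourth, 4129 to 6229 nt, 2.82% were called higher and 40.8% lower, and of the members Cpt1a, Hadhb and Idh2 only Idh2 was called, upward. In the longest bin, from 6233 nt, 1.16% were called higher and 66.2% lower, and the members Acsl1, Etfa and Ogdh were not called. Length and fold change had a Spearman's rho of -0.72 across the 34 genes and of -0.72 across all tested genes. Genes are not independent replicates, and the values share the same 6 libraries.

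For each of the 34, the median log2 fold change of the 500 other tested genes nearest in length was taken. The member lay above that median in 19 cases and below it in 15, and within 0.10 of it in 22. Etfb, at 0.48, had neighbours with a median of 0.43, of which 75.0% were called higher. Idh3b stood at 0.33 beside 0.27, Suclg1 at 0.33 beside 0.29, Acaa2 at 0.31 beside 0.26, Hadh at 0.20 beside 0.18 and Mdh2 at 0.24 beside 0.31. Cpt1a, lower in all KO libraries, stood at -0.22 beside -0.21. The differences of these 7 genes were close to what genes of their length showed. Acads, at 0.33 beside 0.16, was a called gene that lay further above its neighbours, at percentile 78.2. By group, the median distance from the neighbours was 0.02 for beta oxidation, -0.12 for pyruvate dehydrogenase (-0.09 without Dld) and -0.01 for the citrate cycle.

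**Figure D3:**
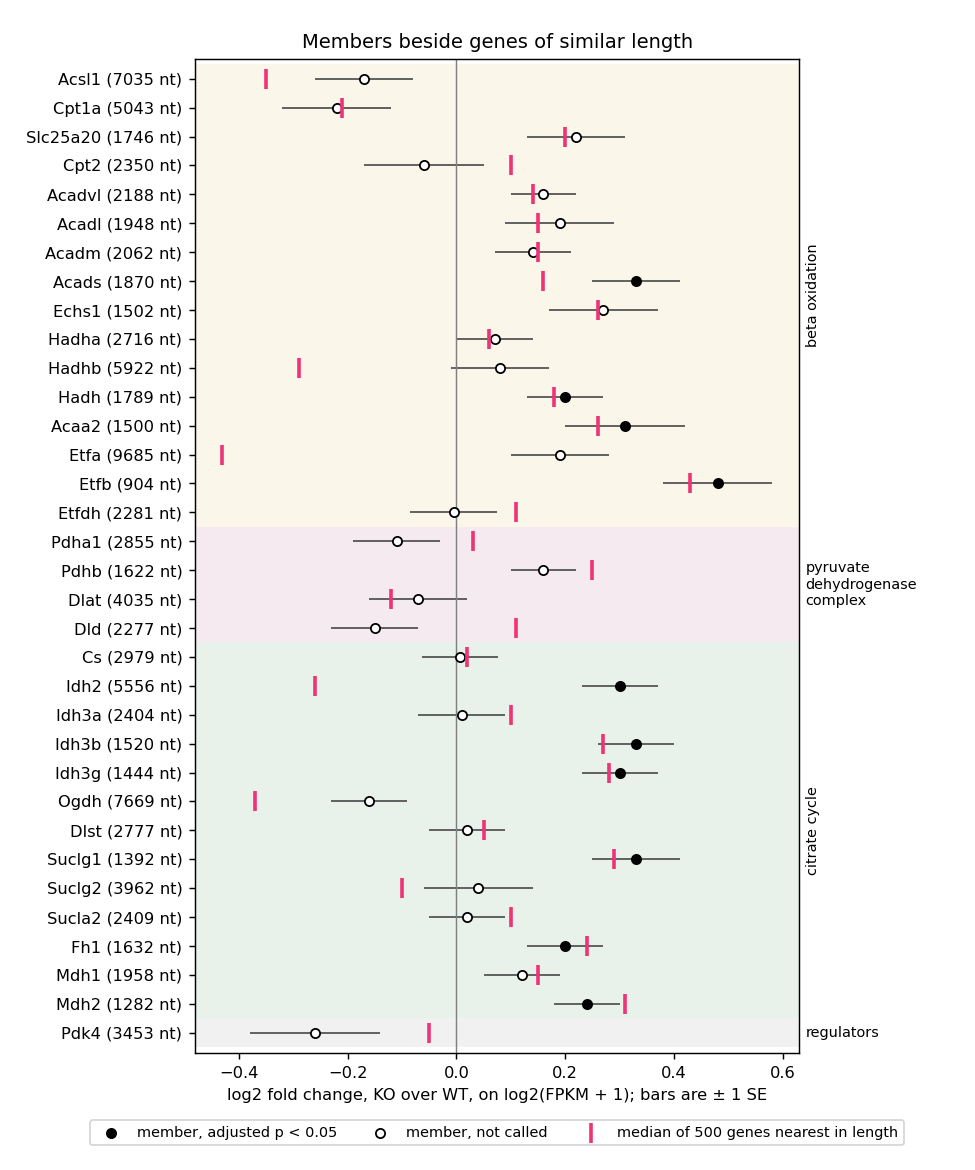
Log2 fold change (KO over WT, ± 1 SE) of the 34 tested genes, filled where called, with the median of the 500 tested genes nearest in gene model length (vertical mark). For 22 of the 34 genes the mark lies within 0.10 of the gene, while Etfa, Idh2 and Hadhb lie far to the right of theirs and Dld lies to the left.

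A few long gene models stood apart from their neighbours. Etfa, at 9685 nt, exceeded the median of its neighbours by 0.62 and was higher than 98.6% of them, and 72.6% of these neighbours were called lower. Idh2, at 5556 nt, exceeded its neighbours by 0.57 and was higher than 97.8% of them. Hadhb, at 5922 nt, exceeded its neighbours by 0.37, at percentile 91.2. Ogdh, at 7669 nt, exceeded its neighbours by 0.21 but stood less apart, at percentile 77.2, beside 78.2 for Acads and 78.6 for Suclg2. On the other side Dld, at 2277 nt, lay 0.26 below its neighbours and was lower than most of them, at percentile 9.8.

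When a smooth length trend was removed from each library, 9.26% of all tested genes were called higher and 9.42% lower, and 4 of the 34 genes were called higher and 1 lower. Etfa was higher by 0.59 (SE 0.09, adjusted p = 0.00522), Idh2 by 0.55 (SE 0.06, adjusted p = 0.00259), Hadhb by 0.35 (SE 0.08, adjusted p = 0.0224) and Ogdh by 0.19 (SE 0.06, adjusted p = 0.0448) on the log2 scale, while Dld fell by 0.27 (SE 0.07, adjusted p = 0.0274). Etfa, Hadhb, Ogdh and Dld were singled out after their values were seen. Leaving out each library in turn kept the calls of Etfa (adjusted p at most 0.0297) and Idh2 (at most 0.0167). Ogdh lost its call in all 6 cases, Hadhb without WT replicate 3 or 4 or KO replicate 2 or 4 (adjusted p up to 0.0899), and Dld without WT replicate 2 or 4 or KO replicate 3 or 4 (adjusted p up to 0.0897). Idh2 was the only gene of the 34 called both with and without the trend.

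**Figure D4:**
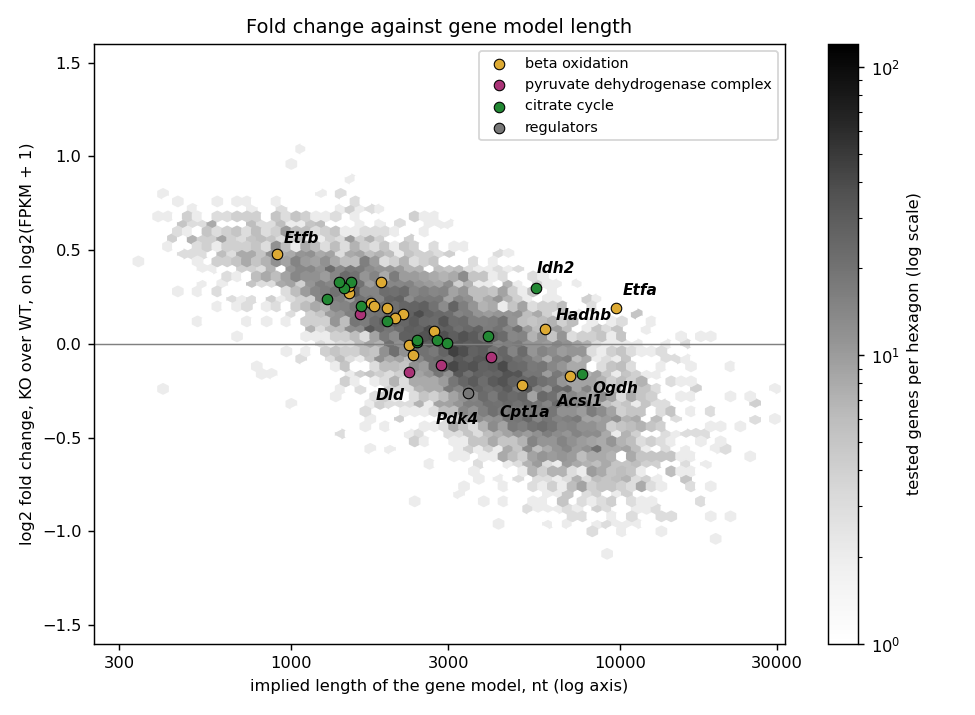
Log2 fold change (KO over WT) against implied gene model length (log axis), with all tested genes as hexagons shaded by number (genes beyond the axes are not drawn) and the 34 tested members as coloured points. Most members follow the downward course of the other genes, and Idh2, Etfa and Hadhb lie above it.

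The length used here is that of the gene model behind the FPKM, implied by the deposited tables, and the transcripts these cells make were not measured. Etfa and Etfb, which encode partners in 1 flavoprotein, show what it does to levels: Etfb exceeded Etfa by 16.2 to 25.2 times in FPKM but by 1.51 to 2.36 times in reads. Hadha exceeded Hadhb by 4.53 to 5.21 times in FPKM and 2.08 to 2.39 times in reads. For the isocitrate dehydrogenase subunits, Idh3b exceeded Idh3a by 5.06 to 6.91 times in FPKM and by 3.2 to 4.37 times in reads. The length assumed for a gene sets which genes it is compared with, and whether the models of Etfa, Idh2 and Hadhb are longer than the transcripts present was not tested.

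Other genes of these pathways were called in both directions, beside 18.3% of all tested genes called higher and 25.8% lower. With the length trend removed these shares were 9.26% and 9.42%. Across the 9 further lists 33.3% to 57.1% of tested genes were called, beside 44.2% of all tested genes. Of 19 further genes listed under mitochondrial beta oxidation, all tested, 6 rose and 1 fell. The 3 with the smallest p were Hsd17b10, a dehydrogenase of branched and short acyl chains (43.1 ± 3.69 to 62.7 ± 2.23 FPKM, adjusted p = 0.000856), Eci1, an isomerase for unsaturated chains, and Hint2. The part of Hint2 in this pathway was not tested. With the length trend removed 3 rose, and Hsd17b10, Eci1 and Hint2 had log2 fold changes of 0.11 to 0.13 and were not called. In the peroxisomal list 2 of 12 tested genes rose, Ech1 and Scp2, and 2 fell, among them Ehhadh, the bifunctional enzyme of peroxisomes (1.63 ± 0.0744 to 1.07 ± 0.0644 FPKM, adjusted p = 0.0157). Scp2 and Ehhadh kept their calls with the trend removed, at log2 fold changes of 0.22 and -0.35.

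Among 8 tested genes of fatty acid activation besides Acsl1, Slc27a3, a fatty acid transport protein, rose from 3.45 ± 0.499 to 5.18 ± 0.417 FPKM (adjusted p = 0.00601), and Acsl4, which prefers arachidonate, and Acss1 fell. Acsl4 went from 5.81 ± 0.341 to 3.49 ± 0.492 FPKM (adjusted p = 0.00171), and both Slc27a3 and Acsl4 were called with the trend removed. The most abundant uncalled gene of this list, Acsl5, was at 62.5 ± 6.62 and 62.1 ± 0.765 FPKM. Malonyl-CoA blocks the Cpt1 enzymes, and of 6 tested genes that set its level 3 fell, Acaca, Acacb and the kinase gene Prkaa1; with the trend removed limma called 0 of the 6, and 1 was lower at an unadjusted p under 0.05. Acaca, which makes malonyl-CoA, went from 2.72 ± 0.051 to 1.48 ± 0.181 FPKM (adjusted p = 0.0015). Its gene model has 10675 nt.

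Of 14 tested partners of the nuclear receptors and coactivators, 5 fell and 3 rose. The 3 with the smallest p were the corepressor gene Ncor1 (13.3 ± 0.868 to 7.54 ± 1.21 FPKM, adjusted p = 0.000906), Med1 and the deacetylase gene Sirt1 (5.25 ± 0.559 to 3.4 ± 0.141 FPKM, adjusted p = 0.00302), all lower. Ncor1 and Sirt1 were called with the trend removed. Of 8 tested targets of PPAR alpha outside the 37 genes, 4 rose and none fell in limma, with Ucp2, an inner membrane carrier, at 118 ± 8.9 and 166 ± 6.86 FPKM (adjusted p = 0.00114), while the fatty acid receptor gene Cd36 was at 747 ± 48 and 753 ± 46.2 FPKM (adjusted p = 0.923). Ucp2 was the 1 gene of the list called with the trend removed. In the ketone body list Acat1, the thiolase of acetoacetyl-CoA, rose among 3 tested genes, from 23.6 ± 1.87 to 27.4 ± 0.772 FPKM (adjusted p = 0.048), and was called with the trend removed.

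Around pyruvate dehydrogenase, 4 of 12 tested genes rose and 2 fell, led by Pdpr, the regulator of its phosphatase (3.15 ± 0.164 to 2.01 ± 0.175 FPKM, adjusted p = 0.00418), and Mpc2, a subunit of the pyruvate carrier (36.6 ± 1.13 to 51.7 ± 7.86 FPKM, adjusted p = 0.00426). Neither was called with the trend removed. Of 21 tested genes of the citrate cycle and its side branches, 8 rose and 2 fell. The succinate dehydrogenase subunit gene Sdhd rose (64.8 ± 2.1 to 84.7 ± 4.16 FPKM, adjusted p = 0.00202), as did Slc25a11, the carrier of 2-oxoglutarate (31.7 ± 1.68 to 41.3 ± 0.834 FPKM, adjusted p = 0.00243). Slc25a11 kept its call with the trend removed, at a log2 fold change of 0.23, and Sdhd did not.

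In the authors' deposited table, 15 of the 37 genes were higher in KO at q under 0.05 and 0 lower, where 13.6% of 17686 genes were higher and 15.7% lower. These were the 10 named above and Slc25a20, Acadvl, Echs1, Etfa and Pdhb. The libraries are the same, so the further calls are no independent support. Log2 fold changes there sat above those fitted here, such as 0.07 against 0.0071 for Cs and 0.13 against 0.07 for Hadha. Median-ratio scaling of the FPKM also called 15 members higher, not all of them the same genes. For Idh2 the authors' deposited table gives a log2 fold change of 0.38 with q = 1.25e-05, and for Etfb 0.54 with q = 1.88e-05.

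Markers of other cells were read beside these results, since heart muscle is rich in the same enzymes and fewer cells of a type cannot be told apart from less RNA per cell in bulk samples. Of 20 cardiomyocyte markers 16 were tested, and 2 rose, Myl2 and Nppa, and 1 fell, Myh6. Their summed level was 238.1 to 349.5 FPKM in WT and 328 to 390.6 in KO, overlapping, and none of the 20 was at 0 in every library. Levels differed widely between these markers. The large sarcomere gene Ttn, with a gene model of 117640 nt, was at 0.00708 to 0.0354 FPKM. Mb stood at 59.7 ± 12.7 FPKM in WT and 69.1 ± 7.4 in KO, and Tnnt2 at 45.1 ± 8.76 and 50.4 ± 2.81. Summed macrophage markers ran from 93.54 to 229.7 FPKM in WT and from 228.4 to 351.2 in KO (7 of 10 rose), and mural markers from 457.2 to 598.5 and from 343.3 to 536.7 (7 of 9 fell). Of 6 tested fibroblast markers 5 fell (summed level 23.88 to 27.59 in WT and 13.89 to 16.26 in KO). Of 6 lymphocyte markers 2 were tested, Cd79a and Cd79b, and both rose. All 3 tested neutrophil markers and 4 of 5 erythroid markers rose. Over all tested genes, 18.3% were called higher and 25.8% lower. In the shortest length bin 59.8% were called higher, and in the longest 66.2% were called lower. With the length trend removed, the calls were 2 of 10 macrophage, 3 of 3 neutrophil, 2 of 2 lymphocyte and 1 of 16 cardiomyocyte markers higher, and 6 of 9 mural and 4 of 6 fibroblast markers lower. Of all tested genes 9.26% were then called higher and 9.42% lower. None of the 5 erythroid markers was then called in limma or reached an unadjusted p under 0.05, and their median went from 0.54 to 0.02. The part of these cells in the differences above was not tested. Of 12 endothelial markers, 2 rose and 5 fell, and their summed level was 4849 to 4974 FPKM in WT and 4504 to 4900.0 in KO; with the trend removed 0 were called higher and 3 lower.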

How the data were processed

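The authors deposited 1 table of FPKM values and 1 comparison table. Per the file headers, the latter gives each genotype's mean normalized signal, a fold change (ratio), its log2, a p-value and a q-value. Per the labels' protocols, a stranded mRNA kit was used on 1 µg of total RNA; whether counting used strand is not given in the sources used here. Per the submitters' processing notes, which assign no roles, the tools were DESeq2 1.22.1, featureCounts 1.6.2, HISAT2 2.1.0, fastp 0.19.3, GATK 4.0.11.0, Cufflinks and StringTie 1.3.4d, with the mm10 genome. The table's 6 repeated per-library columns were not used.

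Whole reads and gene model lengths were solved from the FPKM and the authors' group means for 17686 genes (100.0% of values up to 1000 reads whole within 0.05). Genes that reached an FPKM of 1 in 3 or more libraries were log2-transformed (pseudocount 1) and fitted in R 4.3.3 by limma 3.58.1 with a mean-variance trend and genotype as the single term, and p-values were adjusted over all of them by Benjamini-Hochberg. The length trend was a lowess curve (span 0.3) of each library's deviation on log2 length. Single untested genes had exact two-sided permutation tests. The code was tried on simulated counts with a fixed dispersion and a length trend linear in log2 length. That setting is simpler than these libraries and is no check of the calls. Python 3.11.15 with scipy 1.17.1 did the rest. Floors cover counting error only. Coordinates are from RefSeq GRCm38.p6, where all 37 genes matched by gene ID.

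Members and lists (204 of 207 further symbols found) were chosen with earlier results of these data known. Per-library values were given for Cpt1a, Cpt1b, Pdk4, Ppara and Ppargc1a, for up to 3 called genes with the smallest p and the 2 highest genes of each role, and for genes that differed with the length trend removed; of each further list, up to 3 called genes with the smallest p and the most abundant uncalled gene could be named, apart from items not reported here. Alternatives were a pseudocount of 0.1, no filter, FPKM of at least 5, quantile and median-ratio scaling, the length trend removed, a replicate block, limma-voom on reads, an adjusted p under 0.01, each library left out, and other neighbour sets. No sequences are printed, as no sequence table was used here.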

Additional observations from a re-analysis of the deposited data

How the results depend on the processing

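With the length trend removed, 2019 genes were called in all, 4 members higher and 1 lower, and the median log2 fold change was 0.01 for beta oxidation and -0.005 for the citrate cycle. Signs turned for Acsl1 (0.15), Acadm (-0.01), Pdhb (-0.08), Dlat (0.05), Cs (-0.005), Idh3a (-0.08), Ogdh (0.19), Dlst (-0.02), Sucla2 (-0.07), Fh1 (-0.04), Mdh1 (-0.05) and Mdh2 (-0.09), of which Fh1 and Mdh2 had been called. With the replicate number as a block, 6 members were called higher, beside 1542 of all tested genes higher and 2207 lower. With the block and the length trend removed 716 genes in all were called, 2 members higher (Etfa and Idh2) and 0 lower in limma, with the same medians and signs as without the block (0.01 and -0.005 for the medians; Acsl1 0.15, Acadm -0.01, Pdhb -0.08, Dlat 0.05, Cs -0.005, Idh3a -0.08, Ogdh 0.19, Dlst -0.02, Sucla2 -0.07, Fh1 -0.04, Mdh1 -0.05, Mdh2 -0.09). Same-numbered WT and KO libraries had correlations of deviations from the group mean of -0.195, -0.349 and -0.222, and differently numbered ones of 0.002 to 0.199. Deviations within a group sum to 0, so the same-numbered and other values partly offset each other and cannot settle whether samples were paired. The numbers were not taken to pair the samples, and the main fit had genotype as its single term.

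Quantile normalization called 7 members higher and 1 lower (Ogdh), lost Hadh, Acaa2, Idh3g, Fh1 and Mdh2 and gained Slc25a20 and Etfa, gave a citrate cycle median of 0.06 and turned uncalled members Cpt2 (0.06), Hadha (-0.05), Etfdh (0.0081), Dlat (0.04), Cs (-0.10) and Dlst (-0.05). Over all 10806 tested genes it called 2207 higher and 2359 lower. Median-ratio scaling called 15 members higher, gave a citrate cycle median of 0.17, Etfdh at 0.04 and 50.3% of all calls as higher, against 41.5%. Of all tested genes it called 2511 higher and 2485 lower. At an adjusted p under 0.01, 2789 genes and 6 members higher remained past the threshold. Leaving out each library gave 6 to 10 members higher and 0 to 1 lower (Pdk4, without KO replicate 4), 2 to 3 higher and 0 to 1 lower with the trend removed (chosen after seeing the data), and medians of 0.08 to 0.17 for the citrate cycle, 0.13 to 0.20 for beta oxidation and -0.13 to -0.03 for pyruvate dehydrogenase. The lowest member counts of 6 came without WT replicate 4 or KO replicate 2. Over all tested genes, leaving out each library called 1411 to 1998 higher and 1981 to 2681 lower. With the trend removed as well, those counts were 356 to 764 and 376 to 925. Uncalled members near 0 turned sign in those cases: Cpt2 ranged from -0.13 to 0.04, Etfdh from -0.06 to 0.03, Cs from -0.04 to 0.04, Idh3a from -0.04 to 0.05, Dlst from -0.0091 to 0.05, Suclg2 from -0.03 to 0.12 and Sucla2 from -0.02 to 0.06. Acads, Etfb, Idh2, Idh3b, Idh3g and Suclg1 kept their calls without each library. With 200 or 1000 neighbours, or neighbours of similar FPKM, 17, 19 and 20 members lay above the median of similar length. The cause of these changes was not tested.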
